A study of Mus musculus with 4 samples.

Results

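Of 10 genes that serve bone mineralisation or mark late osteoblasts, 7 had no listed RNA polymerase II (Pol II) peak in or near them in either condition, where 52.6% of all protein-coding genes had none in either list. The genes were Alpl, Bglap, Bglap2, Ibsp, Spp1, Dmp1, Phex, Mepe, Phospho1 and Enpp1, taken as a named set out of 21883 protein-coding genes. A peak counted for a gene when its interval lay inside the gene or within 5 kb of its boundaries. Spp1, Phex and Enpp1 had 1 peak each, all in the list made from cells given OSS_128167. That list holds 40748 peaks, against 1694 in the other. The false discovery rates of the peaks at Spp1, Phex and Enpp1 were 0.753, 0.191 and 0.676, so none was at most 0.05. Alpl, Bglap, Bglap2, Ibsp, Dmp1, Mepe and Phospho1 had 0 peaks in both lists.

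Pol II was mapped by ChIP-seq, which sequences the DNA crosslinked to a protein and recovered with an antibody. The cells were primary osteoblasts from young mice, grown out of bone pieces for 3 days, taken through 3 passages as bone marrow mesenchymal stem cells, and then kept for 3 days in osteogenic medium. Of the 4 samples, 1 Pol II library and its input carry the title of WT osteoblasts (here untreated), and 1 Pol II library and its input carry the title of osteoblasts treated with OSS_128167, an inhibitor of the chromatin deacylase SIRT6. The treatment field names the inhibitor for all 4, so the untreated group rests on titles. The labels give a Pol II antibody for both ChIP libraries, while SIRT6 stands in the name of the peak list from treated cells, so that calling these peaks Pol II peaks rests on the labels alone. The sources used here do not give the dose, duration, strain or number of animals. With 1 library per condition no difference between the conditions was tested, and because the cells were profiled in bulk, fewer cells using a gene and less Pol II per cell cannot be told apart.

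Mineral is laid down in bone when phosphate is freed outside the cell and its inhibitor pyrophosphate is removed. Alpl encodes tissue-nonspecific alkaline phosphatase, which hydrolyses pyrophosphate, Enpp1 the enzyme that makes pyrophosphate outside the cell, and Phospho1 a phosphatase of matrix vesicles. Ibsp, Spp1, Dmp1 and Mepe encode acidic phosphoproteins of the SIBLING family (bone sialoprotein, osteopontin, dentin matrix protein and matrix extracellular phosphoglycoprotein). Phex encodes an endopeptidase that keeps phosphate in the body, and Bglap and Bglap2 encode osteocalcin. In textbook accounts Alpl rises early in differentiation, Ibsp and Spp1 with the matrix, Bglap as mineral forms, and Dmp1, Phex and Mepe toward the osteocyte.

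Stretches just upstream of annotated starts, where initiating Pol II would be looked for, are shown for 4 genes. At all 12 annotated starts, shown or not, 0 peaks were listed within 1 kb. Each is the 250 bases before a start, 5′ to 3′ on the gene's strand, from RefSeq on GRCm38.p6, the assembly behind mm10. Capitals mark the letters of a TATA box (TATAAA) or a RUNX site (AACCACA) on either strand. Each stretch shown holds such a match. The first starts of Alpl and Dmp1, the second of Spp1 and those of Phex, Phospho1 and Enpp1 hold neither and are not shown. Bglap lies at chr3:88384467-88384716 on the minus strand, Ibsp at chr5:104299037-104299286, Spp1 at chr5:104434861-104435110, and the second annotated start of Dmp1 at chr5:104202367-104202616, these 3 on the plus strand.
Bglap: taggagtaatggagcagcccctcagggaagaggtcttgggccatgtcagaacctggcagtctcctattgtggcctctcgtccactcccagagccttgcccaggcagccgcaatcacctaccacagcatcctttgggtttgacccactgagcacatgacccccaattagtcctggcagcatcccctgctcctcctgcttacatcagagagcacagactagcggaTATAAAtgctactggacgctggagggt
Ibsp: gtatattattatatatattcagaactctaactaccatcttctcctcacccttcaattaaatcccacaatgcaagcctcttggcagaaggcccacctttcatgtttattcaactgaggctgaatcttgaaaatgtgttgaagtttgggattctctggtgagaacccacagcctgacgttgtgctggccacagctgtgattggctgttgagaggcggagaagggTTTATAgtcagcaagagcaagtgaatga
Spp1: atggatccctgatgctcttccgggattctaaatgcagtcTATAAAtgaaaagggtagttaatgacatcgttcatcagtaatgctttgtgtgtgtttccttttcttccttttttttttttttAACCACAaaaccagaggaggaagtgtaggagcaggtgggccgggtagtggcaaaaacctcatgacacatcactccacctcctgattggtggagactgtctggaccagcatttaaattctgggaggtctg
Dmp1: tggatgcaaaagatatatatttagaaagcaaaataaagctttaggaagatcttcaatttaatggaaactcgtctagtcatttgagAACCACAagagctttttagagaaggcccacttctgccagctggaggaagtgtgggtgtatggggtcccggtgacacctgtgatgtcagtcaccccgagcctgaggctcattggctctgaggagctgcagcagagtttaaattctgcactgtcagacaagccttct

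The TATA letters of Bglap stood 27 to 22 bases before the start, and those of Ibsp, read on the opposite strand, 28 to 23 bases before it. Spp1 held AACCACA at bases 129 to 123 before its start and Dmp1 at bases 165 to 159. Over the 12 annotated starts of the 9 genes with an entry (Bglap2 had none), 5 held TATAAA, 2 AACCACA, 2 the homeobox core TAATTA and 1 the AP-1 site TGANTCA. Among 21262 starts of protein-coding genes the shares were 11.6%, 3.82%, 4.30% and 6.13% in that order. The other TATAAA matches lay farther from the start than those of Bglap and Ibsp. They stood 192 to 187 bases before the second Alpl start, 211 to 206 before that of Spp1 and 173 to 168 before that of Mepe. TAATTA lay at Mepe and at the second Spp1 start, and the AP-1 letters lay at Phospho1. GC content of the 12 stretches ran from 35.6% to 75.6% with a median of 45.8%, against 55.6% for all starts. A match is a string of letters in this window and not a measured binding site.

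In the untreated list 0 of 10 genes had a peak (0%, exact 95% interval 0 to 30.8), where 2.71% of protein-coding genes had one, and 0.142% had one with a false discovery rate (FDR) of at most 0.05. A count of 0 of 10 is near that background. In the OSS_128167 list 3 of 10 had a peak (30%, 6.67 to 65.2), where 46.7% of protein-coding genes had one, a share inside this interval. With an FDR of at most 0.05 the count was 0 of 10, against 15.6% of protein-coding genes. Intervals cover the counting of genes only, and neighbours such as Bglap and Bglap2 are not independent. The 534 kb of windows around the 10 genes held 3 OSS_128167 peaks, or 5.61 per Mb, against 14.9 per Mb over the assembled chromosomes. Phex on the sparsely covered chromosome X took 263 kb of these windows with 3.80 peaks per Mb, and the other 9 genes had 2 peaks in 271 kb, or 7.37 per Mb. Since the untreated list had no peak at these genes, 0 of them had overlapping peaks between the lists, near the 0.302% of protein-coding genes whose untreated peaks overlapped an OSS_128167 peak.

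**Figure D1:**
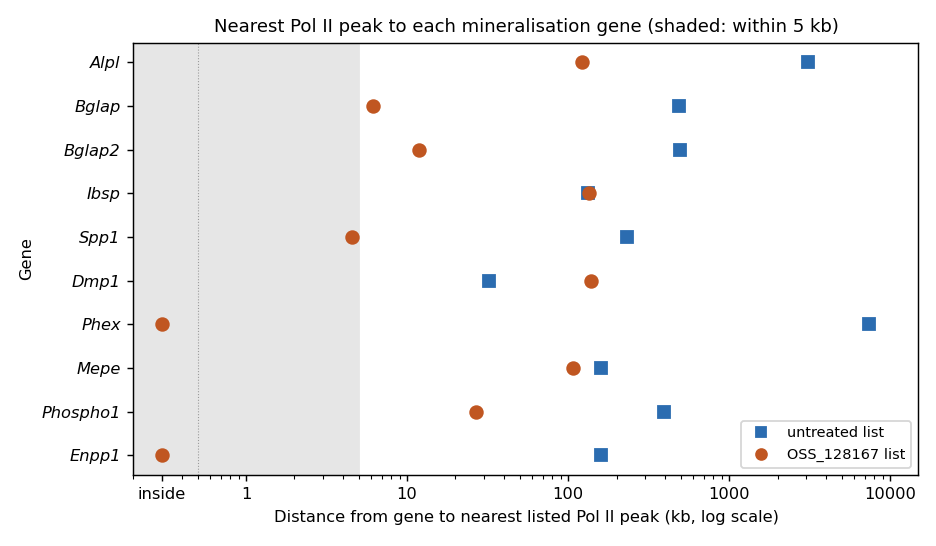
Distance in kb (log scale) from each of the 10 genes to the nearest listed Pol II peak in the untreated list (squares) and the OSS_128167 list (circles), with the 5 kb window shaded and peaks inside a gene drawn at the left edge. Phex, Enpp1 and Spp1 reach the window in the OSS_128167 list, Bglap lies just outside it at 6.16 kb, and no untreated square is nearer than 32.1 kb.

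Among the enzymes and the peptidase, the long genes Enpp1 and Phex held the peaks inside their bodies, far from their starts. Enpp1 (chromosome 10, 24637914 to 24712159, minus strand) had a peak of 226 bp from 24639777 to 24640002, with a fold of 2.37, a p-value of 0.00244, an FDR of 0.676 and a pileup of 8. Fold is the authors' enrichment over their background within that list, and pileup is the height of the signal. The centre of this peak lay 72.3 kb past the start and 1.98 kb before the 3′ end. Phex (chromosome X, 157162075 to 157415286, minus strand) had a peak of 306 bp from 157353003 to 157353308, with a fold of 3.08, a p-value of 0.00018, an FDR of 0.191 and a pileup of 8. Its centre lay 62.1 kb past the start and 191 kb before the 3′ end.

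Of these peaks the one in Phex ranked higher in its list. Its fold exceeded that of 66.4% of OSS_128167 peaks, while that of the Enpp1 peak exceeded 10.2%. The median fold of the list was 2.87, its median pileup 8 and its lowest pileup 5, so both peaks stood at the median height. Chromosome X held 3.30 OSS_128167 peaks per Mb, and 16.9% of its protein-coding genes had a peak by the same rule. On chromosome 10 the values were 15.8 per Mb and 52.7%. Phex also had few peaks around it, with 4 within 500 kb, against 10 for Enpp1 and a median of 18 over protein-coding genes.

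Alpl and Phospho1, the phosphatases that free phosphate for mineral, had no peak in either window. Alpl (chromosome 4, 137741731 to 137796384, minus strand) is 54.7 kb long, and its nearest OSS_128167 peak lay 122 kb away inside Usp48, with an FDR of 0.496. The nearest untreated peak was 3096 kb from Alpl. There were 20 OSS_128167 peaks within 500 kb of Alpl, so the surroundings were not empty. Phospho1 (chromosome 11, 95824500 to 95832140, plus strand) had its nearest OSS_128167 peak 27.0 kb away, over the transfer RNA gene n-TQttg6 and the non-coding gene 4833417C18Rik, with a fold of 3.24 and an FDR of 0.0327. It was the nearest peak with the lowest FDR among the 10 genes, and it lay over neither Phospho1 nor another protein-coding gene. The nearest untreated peak to Phospho1 was 393 kb away.

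The SIBLING genes lay in a stretch of chromosome 5 in which neither list had a peak. From the lower boundary of Dspp to the upper boundary of Spp1 (104170703 to 104441053, 270 kb) both lists held 0 peaks across 5 protein-coding genes, Dspp, Dmp1, Ibsp, Mepe and Spp1. At the mean density of the OSS_128167 list a stretch of that length would hold 4.03 peaks, although peaks are not evenly spread. The only peak counted for this group lay 4563 bp beyond the 3′ boundary of Spp1 (104435111 to 104441053), from 104445616 to 104445902, with a fold of 2.05, a p-value of 0.00658, an FDR of 0.753 and a pileup of 9. Only 0.682% of OSS_128167 peaks had a lower fold, and the peak overlapped no annotated gene. It was also the nearest OSS_128167 peak to Mepe (chromosome 5, 104325329 to 104338611), at 107 kb, and to Ibsp (104299287 to 104311472), at 134 kb.

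Dmp1 (chromosome 5, 104197575 to 104214102) had its nearest OSS_128167 peak 138 kb away, in Nudt9. It was the gene of the 10 with the nearest untreated peak, 32.1 kb away on the far side of Dspp, with a fold of 3.81 and an FDR of 1. That untreated peak lay 5255 bp from Dspp, just outside the window of that gene. Pkd2, the next gene after Spp1 and 12.9 kb from it, had 3 OSS_128167 peaks by the same rule with a highest fold of 3.01, and none had an FDR of at most 0.05. The counts within 500 kb of the 4 SIBLING genes were 13 to 15 OSS_128167 peaks and 3 untreated peaks.

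**Figure D2:**
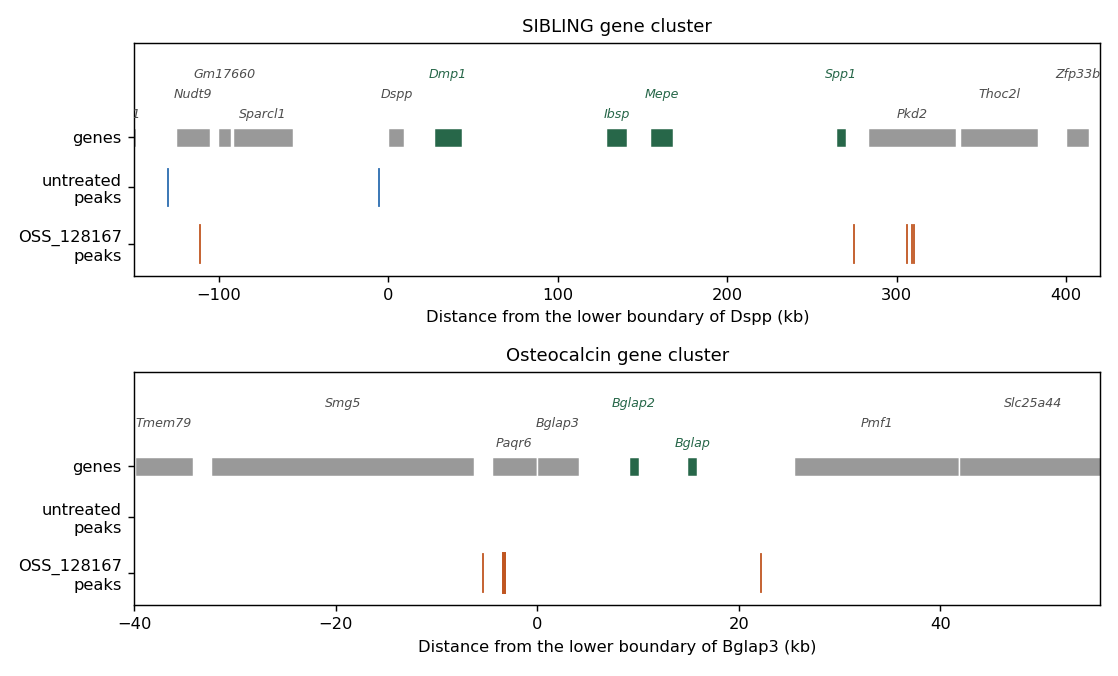
Genes (boxes, the 10 genes in green) and listed Pol II peaks (ticks, thick where the FDR is at most 0.05) around the SIBLING cluster, in kb from the lower boundary of Dspp, and around the osteocalcin cluster, in kb from the lower boundary of Bglap3. No tick falls between Dspp and the end of Spp1 or between Bglap3 and the end of Bglap, and the thick tick left of Bglap3 lies in Paqr6.

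The osteocalcin genes had no peak, although their surroundings held many. Bglap (chromosome 3, 88383495 to 88384466) and Bglap2 (88377736 to 88378701) are under 1 kb long and 4.79 kb apart, so their windows overlap. The stretch from Bglap3 to Bglap (15.9 kb) held 0 peaks in both lists, where the mean density would give 0.236 in the OSS_128167 list. There were 53 OSS_128167 peaks within 500 kb of Bglap and 54 within 500 kb of Bglap2, the highest counts of the 10 genes. The nearest, 447 bp long from 88390626 to 88391072, lay 6.16 kb from Bglap and 3066 bp from Pmf1, with a fold of 2.69 and an FDR of 0.377. Spp1, at 4.56 kb, and Bglap, at 6.16 kb, were thus the genes just inside and just outside the 5 kb limit, and with a limit of 10 kb Bglap was counted and the total became 4 of 10. The nearest untreated peak was 488 kb from Bglap, in Gon4l. Bglap, Bglap2 and Bglap3 are near-identical copies, and how reads that fit several copies were treated is not given in the sources used here, so a missing peak at these genes is uncertain.

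Gene length sets how much room a peak has, so the 10 genes were also set beside protein-coding genes of their own length class. Whether length accounts for the number of genes with a peak was not tested. Among protein-coding genes of under 5 kb 24.1% had an OSS_128167 peak, and 0 of the 2 osteocalcin genes did. At 5 to 20 kb the share was 38.9%, and 1 of 5 genes had a peak, Spp1, while Ibsp, Dmp1, Mepe and Phospho1 did not. At 50 kb and over it was 75.6%, and 2 of 3 had one, Phex and Enpp1, while Alpl did not. No gene of the set fell in the class of 20 to 50 kb, where the share was 51.4%. Phex, at 253 kb, had 1 peak, below the lower quartile of 2 and the median of 4 for genes of 200 to 500 kb over all chromosomes. Enpp1, at 74.2 kb, had 1 peak, the median for genes of 50 to 100 kb.

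**Figure D3:**
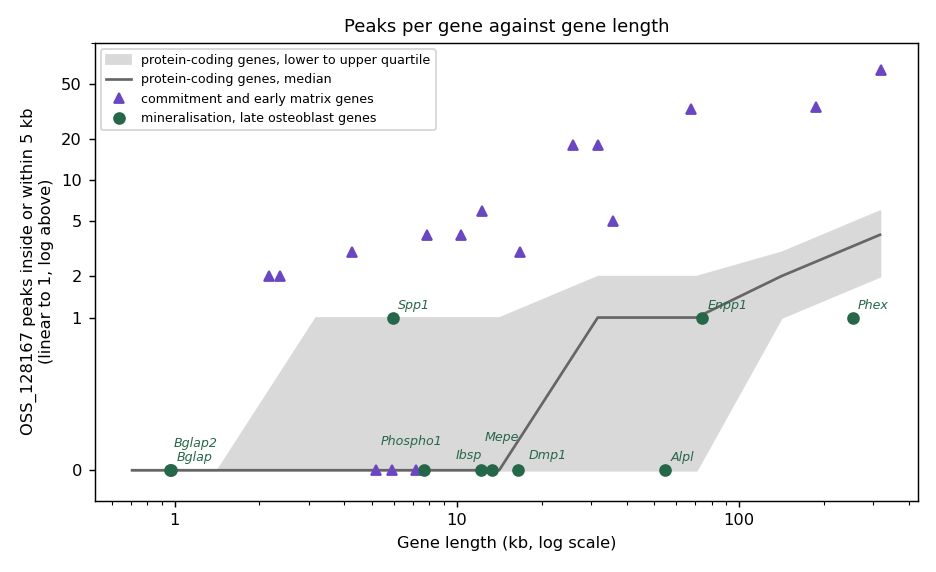
OSS_128167 peaks inside or within 5 kb (linear to 1, log above) against gene length in kb (log scale), for the 10 genes (green circles) and 16 commitment and early matrix genes (purple triangles), with the median and quartiles of all protein-coding genes in grey. The circles sit at 0 or 1 peak, and 13 of the 16 triangles sit at 2 or more.

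No peak lay at a start of these genes. Of their 12 annotated starts 0 had a peak of either library within 1 kb. Of the 21262 starts 5.34% had an OSS_128167 peak and 0.155% an untreated peak that close, so counts of 0 of 12 are near these shares. Of protein-coding genes with a known strand 5.15% had an OSS_128167 peak within 1 kb of the 5′ end and 11.3% within 1 kb of the 3′ end. For the 9 genes with a known strand the counts were 0 and 0. Within 5 kb the shares were 15.0% at the 5′ end and 27.9% at the 3′ end, and the counts 0 and 2 of 9, Spp1 and Enpp1.

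Genes of osteoblast commitment and early matrix mostly had OSS_128167 peaks, at a gene length like that of the 10 mineralisation and late osteoblast genes. Of these 16 genes 13 had a peak (81.2%, exact 95% interval 54.4 to 96.0), where 46.7% of all protein-coding genes had one. With an FDR of at most 0.05 the count was 12 of 16, against 15.6% of protein-coding genes. The median number of peaks of the 16 genes was 4, against 0 for the 10 genes and 0 over all protein-coding genes. Median lengths were 11.4 kb for the 16 and 12.8 kb for the 10 genes. Col1a1 and Col1a2, the chains of type I collagen, had highest folds of 9.42 and 9.03, Fn1 (fibronectin) 8.19 and Sparc (osteonectin) 7.77. Sp7, a transcription factor gene required for osteoblast formation and chosen after its values were seen, had 4 peaks (highest fold 4.13, FDR 0.00423). Its peak of highest fold lay 786 bp outside the gene. Dlx3, Msx2 and Lum had no peak in either list. In the untreated list 4 of the 16 had a peak, Runx2, Col1a2, Postn and Fn1, where 2.71% of all protein-coding genes had one. With an FDR of at most 0.05, reached at 0.142% of protein-coding genes, the count was 0 of these 16. These genes were listed with earlier results of these data known, so the difference is a description.

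Other genes of the late osteoblast had OSS_128167 peaks about as often as all protein-coding genes, and the peaks counted lay outside the genes. Of 8 such genes 3 had a peak within 5 kb (37.5%, against 46.7%) and 2 had one with an FDR of at most 0.05 (against 15.6%), and with no margin the first count was 0. Ifitm5, a bone-restricted membrane protein gene, had 2 peaks, 1650 bp from it in Pgghg (fold 3.95, FDR 0.012) and 346 bp from it in no other protein-coding gene (2.87, FDR 0.377). The peak counted for Bglap3 was 3144 bp from it and in Paqr6 (3.90, FDR 0.0134). The peak of Pth1r, the receptor of parathyroid hormone, was 2091 bp from the gene (2.11, FDR 0.966). Dspp, Omd, Wif1, Tmem119 and Cthrc1 had no peak in either list.

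Osteocyte genes were divided, with OSS_128167 peaks at 3 of 8 (37.5%), each with an FDR of at most 0.05 at 1 peak. Over all protein-coding genes 46.7% had a peak and 15.6% one with such an FDR. Sost, which encodes the Wnt inhibitor sclerostin, Fgf23, a hormone that lowers blood phosphate, and Pdpn, Capg and Dkk1 had no peak in either list. The nearest OSS_128167 peaks to Sost and Fgf23 lay 7.62 and 9.64 kb away, outside the 5 kb limit but within 10 kb. Irx5 (7 peaks, highest fold 4.47, FDR 6.99e-05), Ptprz1 (6 peaks, 3.85, FDR 0.00643) and Reln (5 peaks, 3.45, FDR 0.05) had OSS_128167 peaks, and Ptprz1 and Reln are 178 and 460 kb long.

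Genes that handle phosphate, pyrophosphate or matrix vesicles had OSS_128167 peaks in 9 of 14 cases, where 46.7% of all protein-coding genes had one. With an FDR of at most 0.05 the count was 3 of 14, against 15.6% of protein-coding genes. The median length of these 14 genes was 43.4 kb, and 51.4% of protein-coding genes of 20 to 50 kb had a peak. Mgp, which encodes the mineralisation inhibitor matrix Gla protein, had 6 peaks in a gene of 3.39 kb and its window, with a highest fold of 4.44 and an FDR of 1.17e-05. The annexin genes Anxa2 (20 peaks, 4.31), Anxa6 (6 peaks, 3.66) and Anxa5 (4 peaks, 3.52) followed, with FDRs of 0.00235, 0.0179 and 0.0548. The peaks of highest fold of Mgp, Anxa2 and Anxa5 lay 165, 4246 and 3759 bp outside the genes, and that of Anxa6 inside. Ank, which encodes a pyrophosphate transporter, had 4 peaks, Ppa1 2, and Slc20a2, Nt5e and Galnt3 1 each, none with an FDR of at most 0.05. Slc20a1, Smpd3, Abcc6, Fam20c and Ahsg had no peak, and the untreated list had 0 peaks at all 14 genes.

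**Figure D4:**
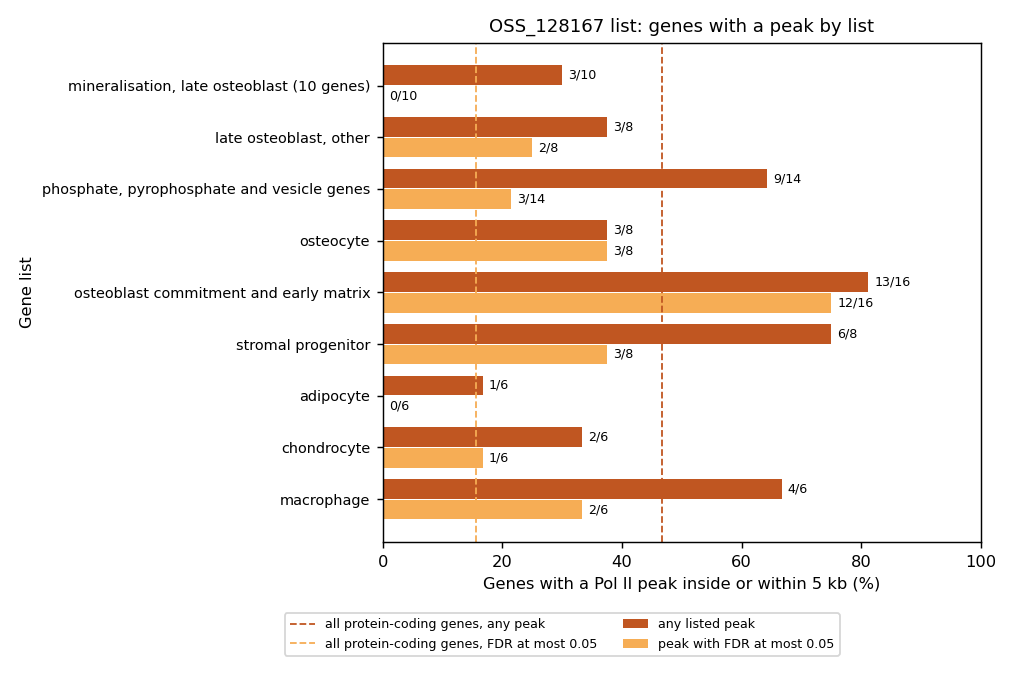
Share of genes in each list with an OSS_128167 peak inside or within 5 kb (dark bars) and with such a peak at an FDR of at most 0.05 (light bars), with counts beside the bars and dashed lines for all protein-coding genes (46.7% and 15.6%). The mineralisation genes stand at 3 of 10 and 0 of 10, and the commitment and early matrix genes at 13 of 16 and 12 of 16.

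Markers of other cells the culture could hold were also counted by this rule. In the OSS_128167 list 6 of 8 stromal progenitor, 1 of 6 adipocyte, 2 of 6 chondrocyte and 4 of 6 macrophage genes had a peak. In the same order 3, 0, 1 and 2 had one with an FDR of at most 0.05. Over all protein-coding genes the shares were 46.7% and 15.6%. The median gene lengths of these lists were 24.5, 11.6, 9.81 and 40.8 kb. Among the macrophage genes Adgre1 had 3 peaks inside it (highest fold 3.61, FDR 0.0212), and Ptprc (3.24, FDR 0.116) and Itgam (2.87, FDR 0.377) had 1 each inside. Of the 4 peaks of Cd68, 2 overlapped the gene (3.00, FDR 0.159, and 4.39, FDR 5.34e-05, the latter also in Eif4a1), and the one of highest fold, 8.19, lay outside it in Eif4a1, while Csf1r and Lyz2 had none. A peak by this rule was thus not restricted to genes of the osteoblast, which bears on the peaks of Spp1, Phex and Enpp1. In the untreated list 1 of 6 adipocyte and 1 of 6 chondrocyte genes had a peak, against 2.71% of protein-coding genes. They were Pparg (3 peaks, highest fold 4.09, FDR 0.821), which had 0 in the OSS_128167 list, and Col10a1. The peak of Col10a1 lay 3816 bp outside it in Nt5dc1. The stromal progenitor and macrophage genes had 0 untreated peaks.

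The labels place the cells at 3 days of osteogenic medium. In the OSS_128167 list 13 of 16 commitment and early matrix genes and 3 of the 10 mineralisation and late osteoblast genes had a peak. So did 3 of 8 further late osteoblast genes, 3 of 8 osteocyte genes and 9 of 14 phosphate, pyrophosphate and vesicle genes. Stromal progenitor, adipocyte, chondrocyte and macrophage genes stood at 6 of 8, 1 of 6, 2 of 6 and 4 of 6. The share over all protein-coding genes was 46.7%. These lists were chosen with earlier results of these data known. Alpl and Ibsp, which textbook accounts place before Bglap, were among those of the 10 genes without a peak. No second time point or RNA measurement was used here, so the stage of the culture was not tested. A missing peak says that none was listed at this depth, which is unknown, and not that a gene was silent.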

How the data were processed

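The submitters' processing notes name fastp, BWA and the build mm10. Peak caller, limits and use of inputs: not given in the sources used here. The deposited lists, 1 per library, hold 1694 untreated and 40748 OSS_128167 peaks. Per the file headers each peak has a pileup (signal height), a fold over background as a ratio, an FDR and a p-value. The largest deposited p-value was 0.00956 in the untreated and 0.00999 in the OSS_128167 list. Per the file headers the other columns are start, end and length, counted from 1. The authors' values were used within a list only. No read totals are in the files used here.

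Gene boundaries came from RefSeq on GRCm38.p6, and strand and upstream sequence from its promoter table, which matched 9 of the 10 genes and 17491 of 21883 protein-coding genes. All 72 genes of 8 further lists matched. A peak counted with at least 1 bp inside the gene or its 5 kb margin. Peaks per Mb used chromosome spans up to the last gene or peak. Planned protein comparisons were not run. Named genes were the 10 genes, up to 4 per further list by highest fold, and late or osteocyte genes without a peak, and any others were named after their values were seen. Members and lists were chosen with earlier results of these data known. Alternatives changed the margin, the peak limits, the position rule and the overlap. Counting was tested on simulated data, where 94 of 94 planted peaks near 200 genes were recovered. The work used pandas 2.3.3, numpy 2.4.6, scipy 1.17.1 and matplotlib 3.10.9 in Python 3.11.15.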

Additional observations from a re-analysis of the deposited data

How the results depend on the processing

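In the OSS_128167 list the count of 3 of the 10 genes with a peak, and the count of 3 peaks at them, fell to 0 with an FDR of at most 0.05 and to 1 with a p-value of at most 0.001, the peak in Phex. With a margin of 0 or 1 kb both counts were 2, without the peak of Spp1, and with 10 kb both were 4, with a peak at Bglap. They stayed at 3 by peak centre and without peaks over another gene. In the untreated list both counts were 0 under all 7 alternatives, of which only the 10 kb margin could have added a peak. The overlap between lists was 0 also at 50% reciprocal overlap, which could give nothing else without an untreated peak at these genes. The alternatives for the other gene lists were chosen after seeing the data, and 19 of those 112 counts moved by over 1.5 times. With 10 kb the osteocyte genes with an OSS_128167 peak numbered 5 of 8, with Sost and Fgf23 added. At an FDR of at most 0.05 the commitment and early matrix genes numbered 0 in the untreated list. No paired analysis was possible because each condition has 1 Pol II library. Depth is unknown, and 1 library per condition limits every count here.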
